A study of Mus musculus with 6 samples.

Results

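Genes whose brain expression is known to vary between mouse strains or substrains were examined one array at a time in whole brains of mice with 1 disrupted copy of the periphilin gene and of their wild-type littermates. The question was whether the arrays look alike at genes that report on genetic background. Of 8 genes listed for such variants, 6 had probe sets annotated to that gene alone (Nnt, Glo1, Wdfy1, Kcnj9, Ide and Alad), which gave 23 of the 45037 probe sets analysed. Entpd4 was represented by 4 probe sets that are also annotated to another gene, so no value is given to it. No probe set carried the symbol Disc1, which is not analysed here beyond its chromosomal neighbourhood.

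The study profiled whole brains of 2-month-old male mice, 3 heterozygous for a periphilin (Pphln1) knockout and 3 wild-type littermates described as C57BL/6. Each brain was hybridised to an Affymetrix array of its own. The labels give no C57BL/6 substrain, no strain for the knockout allele and no number of backcrosses, and they do not say which part of the gene was disrupted. The values used are linear intensities as the authors deposited them, with 1 value for each probe set on each array.

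Inbred mice of 1 strain share nearly all of their alleles, including strain-specific deletions, duplications and regulatory variants. RNA levels can still differ between such mice for other reasons, and the cause of the spread reported here was not tested. Knockout alleles are often made in cells of one strain and crossed into another, and litters from such crosses can still carry both alleles at loci far from the targeted gene. Nnt is the best-known marker of this kind among C57BL/6 mice, because the C57BL/6J substrain carries a deletion of several of its exons. Glo1 and Alad lie in segments that are duplicated in some inbred strains, Kcnj9 carries a variant with an expression difference between C57BL/6 and DBA strains, and Wdfy1 has been reported to differ between C57BL/6 substrains.

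Brain cell markers were bright on every array. The summed signal of 4 neuron markers was 18251 to 21395 in heterozygous and 18675 to 18948 in wild-type brains, and that of 4 astrocyte markers 9461 to 11299 and 9360 to 10068. Oligodendrocyte markers (3 of 4 listed found) summed to 12481 to 14291 and 11919 to 13534. Markers of blood, liver and muscle summed to at most 79.8, 58.8 and 226. At an unadjusted p below 0.05 were 1 of 4 tested astrocyte and 1 of 2 tested muscle markers, against 4.83% of all tested probe sets, and none was called. Pituitary markers (Pomc, Prl and Gh) stood apart on wild type 1 (20253) and heterozygous 3 (6556), against 144 to 835 on the other arrays. Array medians lay between 31.0 and 34.4, and log2 values correlated at 0.978 to 0.985 between arrays. The 18S ribosomal RNA control was highest on wild type 2, at 169, against 66.7 to 101 on the others. Pphln1 itself did not pass the test: its probe sets had log2 differences of 0.08 (limma adjusted p = 0.969) and -0.36 (limma adjusted p = 0.956).

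Of the 23 probe sets, 20 were bright enough to be tested (mean above the 40th percentile, a signal of 18.4), and the genotypes were compared with limma on log2(signal + 16). None of the 20 passed the threshold of 0.05 after Benjamini-Hochberg adjustment over all 27022 tested probe sets (lowest limma adjusted p = 0.956), where 0.0148% of all tested probe sets passed. At an unadjusted p below 0.05 there were 2 (10%), against a background of 4.83%. Of these, 1 was higher and 1 lower, where 2.43% and 2.4% of all tested probe sets were. The genotypes did not overlap at 2 of the 20, against 10.2% of all tested probe sets. The median log2 difference was 0.08, with 14 higher and 6 lower in sign, and 0.01 over all tested probe sets. In bulk tissue, fewer cells of a type and less RNA per cell cannot be told apart.

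**Figure D1:**
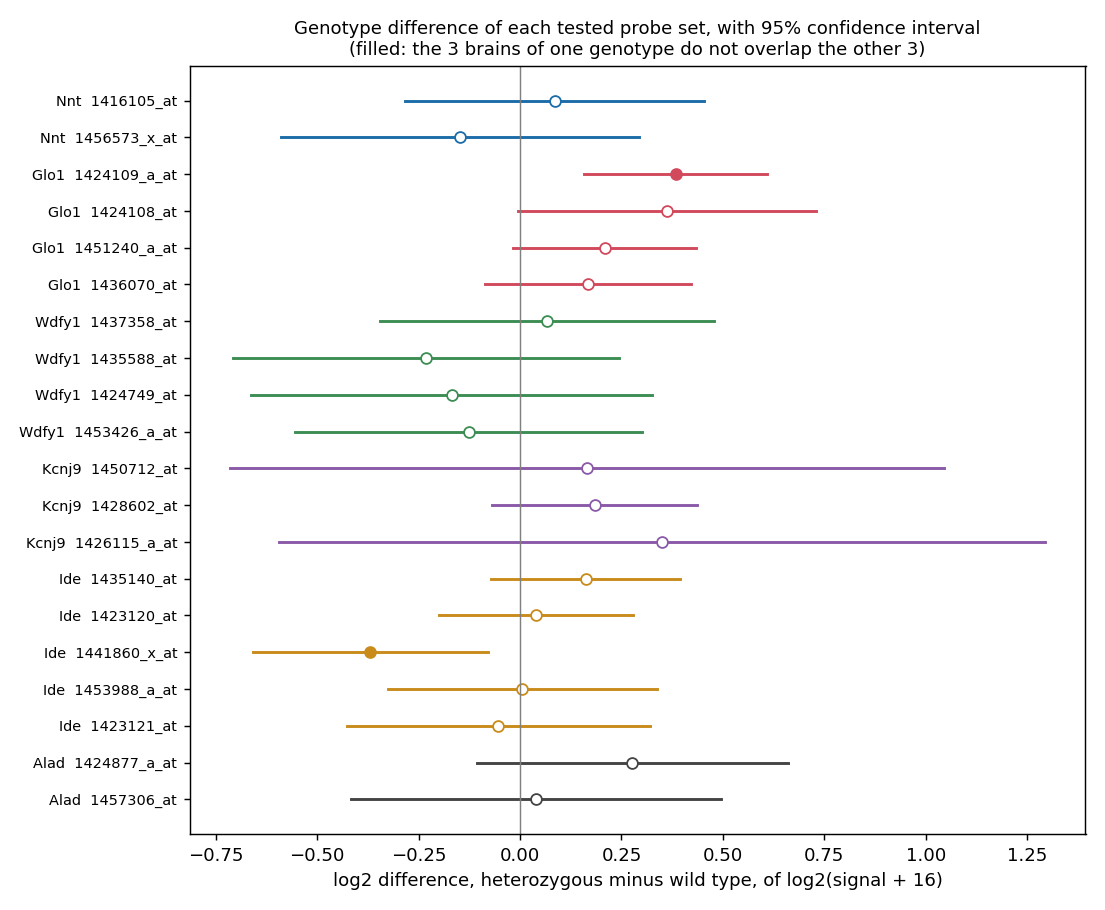
Genotype differences of the 20 tested probe sets. Each point is the log2 difference, heterozygous minus wild type, of log2(signal + 16) with its 95% confidence interval from limma (n = 3 brains each), and filled points mark probe sets where the genotypes do not overlap. The filled points are Glo1 1424109_a_at at 0.38 and Ide 1441860_x_at at -0.37, and the longest intervals belong to Kcnj9.

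The probe sets varied within genotypes, 13 of the 20 more among wild-type and 7 more among heterozygous brains. The standard deviation among the 3 wild-type brains had a median of 0.27 over the 20 probe sets on the log2 scale, against 0.15 over all tested probe sets. It lay in the top 10% of all tested probe sets for 9 of the 20. The members were chosen with earlier results of these data known, so these comparisons with all probe sets are description only. Among heterozygous brains the same medians were 0.18 and 0.16. The most variable probe sets, 2 of Kcnj9, spread more among heterozygous brains, with standard deviations of 1.03 and 0.97 against 0.42 and 0.63 among wild-type brains. Wild type 2 was the array that lay farthest from the other wild-type arrays at 13 of the 20 probe sets, and at 38.4% of all tested probe sets. It had the lowest value of all 6 arrays at 8 of the 20, where 19.0% of all tested probe sets had their lowest value there. The 20 probe sets belong to 6 genes and are not independent, though some probe sets of 1 gene did not follow each other.

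**Figure D2:**
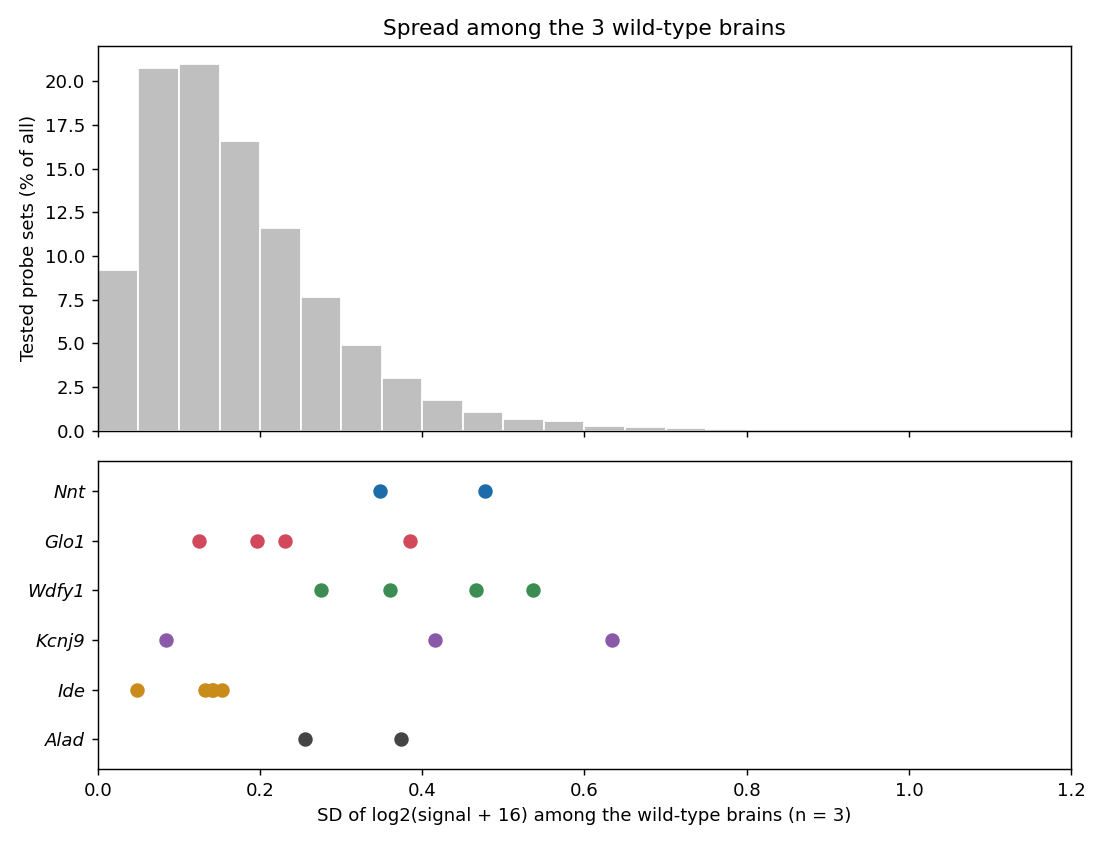
Spread among the 3 wild-type brains. The upper panel shows the share of all 27022 tested probe sets by the standard deviation of log2(signal + 16) among the wild-type brains, and the lower panel shows the tested probe sets of each gene as points on the same axis. Nnt, Wdfy1 and 2 of the 3 Kcnj9 probe sets lie in the right-hand part of the distribution, and 4 of the 5 Ide probe sets lie near its middle, with 1453988_a_at below them at 0.048.

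Glo1 encodes glyoxalase 1, which detoxifies methylglyoxal, a by-product of glycolysis. It was the brightest of these genes and was higher in sign in heterozygous brains at each of its 4 probe sets. At 1424109_a_at the signal was 1652, 1519 and 1626 in heterozygous 1, 2 and 3, and 1078, 1417 and 1193 in wild type 1, 2 and 3. All heterozygous brains lay above all wild-type brains there, and wild type 2 came nearest to them. The means were 1599 ± 70.8 and 1229 ± 172 (SD, n = 3), which differ by 0.38 on the log2 scale, with 95% limits of 0.16 and 0.61 (limma unadjusted p = 0.00337, adjusted p = 0.956). The two-sided exact permutation p was 0.1, the smallest that 3 against 3 brains can give.

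At the second Glo1 probe set, 1424108_at, the heterozygous brains measured 1701, 1605 and 1315 and the wild-type brains 1059, 1618 and 979. Wild type 2 lay inside the heterozygous range there, and wild types 1 and 3 lay below every other brain. The largest step between neighbouring ordered values (0.31 on the log2 scale) fell between wild type 1 and heterozygous 3. Its log2 difference was 0.36 (interval -0.01 to 0.73). The dimmer 1451240_a_at and 1436070_at had differences of 0.21 (interval -0.02 to 0.43) and 0.17 (interval -0.09 to 0.42). Wild type 3 was the lowest array at 3 of the 4 Glo1 probe sets, and wild type 1 at the fourth. The probe sets correlated with each other at 0.55 to 0.88 over the 6 arrays.

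Of 3 genes listed with Glo1 in the duplicated segment only Btbd9 was bright enough to test. At its brightest probe set Btbd9 measured 275, 256 and 234 in heterozygous and 229.5, 217 and 252 in wild-type brains, 0.12 apart on the log2 scale (SE 0.11, limma adjusted p = 0.956). The order of the arrays at this probe set was not that of Glo1, and its correlation with 1424109_a_at was 0.35 (n = 6 arrays). The other tested Btbd9 probe sets, 1434769_at and 1435706_at, differed by 0.08 (SE 0.11) and -0.13 (SE 0.15). Both Dnah8 probe sets lay between 0.995 and 14.4 on all arrays.

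Alad encodes aminolaevulinate dehydratase, the second enzyme of haem synthesis. At 1424877_a_at it measured 305, 418 and 350.1 in heterozygous and 232, 393 and 267 in wild-type brains. Heterozygous 2 and wild type 2 were highest and wild types 1 and 3 lowest, so the genotypes overlapped. The log2 difference was 0.28 (SE 0.17, interval -0.11 to 0.66, limma adjusted p = 0.956), and the highest brain had 1.80 times the lowest. The spread among wild-type brains, 0.37, exceeded that of 93.3% of all tested probe sets. The dim probe set 1457306_at, between 38.5 and 69.0, did not follow it (r = -0.07 over 6 arrays). Alas2, the erythroid enzyme that begins haem synthesis and a marker of blood cells, measured 63.6 on wild type 1, the array lowest at Alad 1424877_a_at. It measured 23.2 to 36.9 on the others and was lowest on wild type 3, the array second lowest at that Alad probe set. Its part in the Alad values was not tested.

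Hdhd3, which encodes a hydrolase-like protein, is the nearest measured neighbour of Alad, with its start at -0.00693 Mb from that of Alad, on chromosome 4. Its signal was 104, 135 and 133 in heterozygous and 84.7, 111 and 90.6 in wild-type brains. Wild types 1 and 3 were again lowest, and heterozygous 2 again highest. Hdhd3 and Alad correlated at 0.89 over the 6 arrays, and the log2 difference of Hdhd3 was 0.33 (SE 0.15, limma unadjusted p = 0.0469, adjusted p = 0.956). Hdhd3 is shown because it followed Alad, so the shared order of arrays is no separate result.

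The promoter windows of Glo1, Alad and Hdhd3 are shown as examples of genes lowest in wild types 1 and 3, 2 of them neighbours, and the brightest Ide probe set shared that pattern. They are RefSeq windows from 250 bases before to 50 bases after the start, build GRCm38.p6, all on the minus strand, written 5′ to 3′. Glo1 is at chr17:30612610-30612909, Alad at chr4:62520014-62520313 and Hdhd3 at chr4:62502151-62502450. Capitals mark the GC-box letters GGGCGG and the CCAAT letters on either strand, which do not overlap one another here except where 2 GC boxes share bases in Glo1.
Glo1: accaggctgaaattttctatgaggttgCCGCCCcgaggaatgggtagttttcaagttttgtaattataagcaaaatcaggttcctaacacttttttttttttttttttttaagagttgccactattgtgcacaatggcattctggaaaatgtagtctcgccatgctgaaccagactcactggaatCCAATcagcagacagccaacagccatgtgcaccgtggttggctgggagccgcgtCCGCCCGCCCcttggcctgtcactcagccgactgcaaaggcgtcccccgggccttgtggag
Alad: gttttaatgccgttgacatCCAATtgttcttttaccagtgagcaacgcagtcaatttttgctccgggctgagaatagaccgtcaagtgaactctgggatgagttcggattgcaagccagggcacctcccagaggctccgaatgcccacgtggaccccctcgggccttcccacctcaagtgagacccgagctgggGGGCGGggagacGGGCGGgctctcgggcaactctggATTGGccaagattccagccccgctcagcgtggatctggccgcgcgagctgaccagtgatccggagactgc
Hdhd3: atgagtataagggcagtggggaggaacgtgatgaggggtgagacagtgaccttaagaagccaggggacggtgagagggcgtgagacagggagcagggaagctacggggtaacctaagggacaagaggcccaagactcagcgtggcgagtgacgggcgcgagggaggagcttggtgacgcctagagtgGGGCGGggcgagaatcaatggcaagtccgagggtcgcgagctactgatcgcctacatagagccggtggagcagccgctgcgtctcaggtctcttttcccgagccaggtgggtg

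GGGCGG was found 3 times in the Glo1 window, 2 times in that of Alad and 1 time in that of Hdhd3, and 35.7% of the 32851 RefSeq windows of the same length hold it. CCAAT was found 1 time in Glo1 and 2 times in Alad, and 37.4% of windows hold it. TATAAA was found in none of the 3, and 13.6% of windows hold it. The windows are reference sequence of C57BL/6J, so they show no allele of these mice.

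Nnt encodes the mitochondrial nicotinamide nucleotide transhydrogenase, which makes NADPH for peroxide removal. At 1416105_at it measured 239.5, 188 and 238 in heterozygous and 227, 154 and 253 in wild-type brains. Wild type 2 was lowest, heterozygous 2 next, and the other 4 brains lay within 227 to 253. The log2 difference between genotypes was 0.09 (interval -0.28 to 0.45, limma adjusted p = 0.975), as a ratio 1.06 with limits of 0.82 and 1.37. No brain lacked the signal, and the ratio of the highest to the lowest brain was 1.64. Where the Nnt probe sets lie relative to the deleted exons was not examined, so these values do not tell which Nnt allele a brain carried.

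The second tested Nnt probe set, 1456573_x_at, measured 170.4, 163 and 202 in heterozygous and 265, 132 and 221 in wild-type brains. Wild type 2 and heterozygous 2 were again the lowest, in the same order, and the probe sets correlated at 0.75. The log2 difference was -0.15 (interval -0.59 to 0.29). The spread among wild-type brains was 0.35 and 0.48 at the 2 probe sets, above 91.7% and 97.2% of all tested probe sets. Another probe set, 1432608_at, lay at 0.553 to 13.6 and was too dim to test.

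Tmem267, which encodes a transmembrane protein, begins 0.153 Mb above the start of Nnt on chromosome 13 and varied more than Nnt. It measured 110, 206 and 98.3 in heterozygous and 161, 342 and 175 in wild-type brains. The brains lowest in Nnt, wild type 2 and heterozygous 2, were the highest in Tmem267, and the highest brain had 3.48 times the signal of the lowest. Its standard deviation over the 6 arrays, 0.59, exceeded that of 99.1% of all tested probe sets, and its correlation with 1416105_at was -0.85. Between genotypes Tmem267 differed by -0.64 (SE 0.28, limma unadjusted p = 0.0467, adjusted p = 0.956), with overlapping groups. Tmem267 is shown because its values ran against those of Nnt, so the opposite order of arrays is no separate result.

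**Figure D3:**
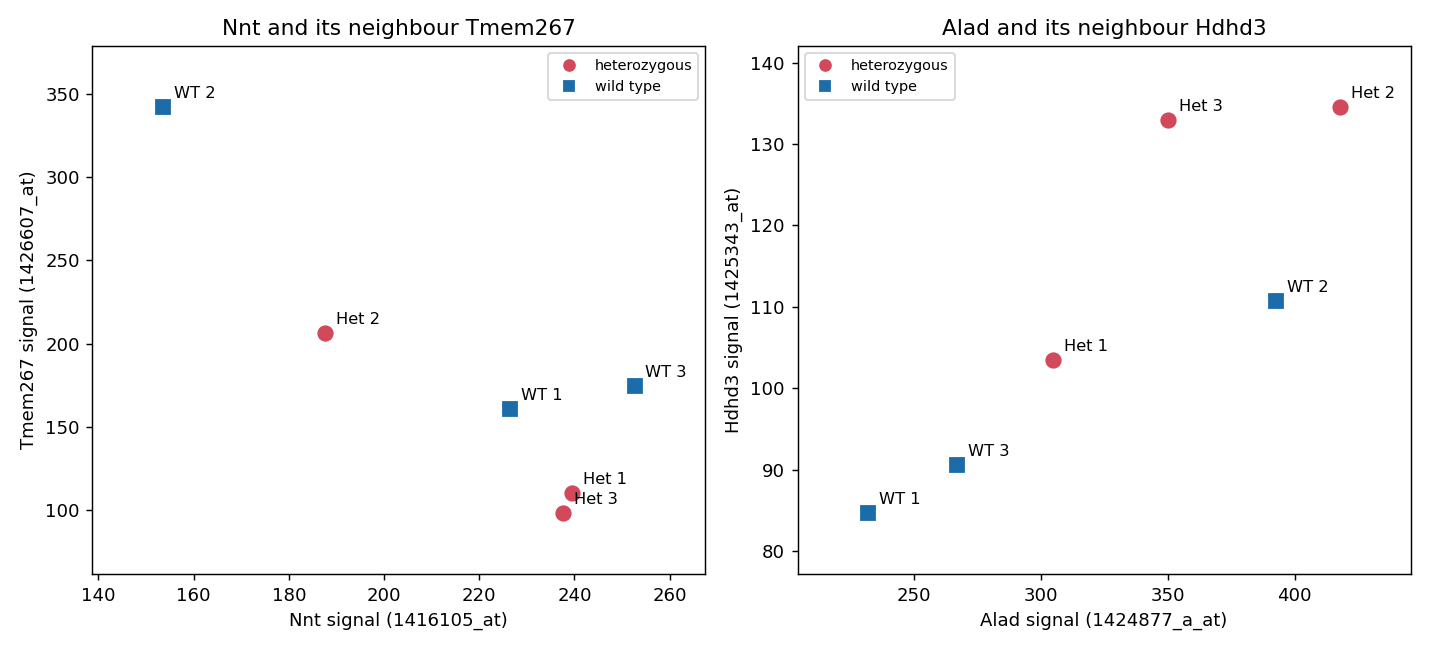
Member genes against a chromosomal neighbour, 1 point per brain, axes in linear signal that do not start at 0. The neighbours are shown because their values followed the member, directly or inversely, so the shared order of arrays is no separate result. In the left panel wild type 2 and heterozygous 2 have the lowest Nnt signals (154 and 188) and the highest Tmem267 signals (342 and 206), and in the right panel Alad and Hdhd3 are both lowest in wild types 1 and 3.

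Wdfy1 encodes an endosomal FYVE-domain protein that acts in Toll-like receptor signalling. Its brightest probe set, 1437358_at, measured 497, 405 and 314 in heterozygous and 439, 281 and 444 in wild-type brains. At 1435588_at the values were 279, 254 and 216 in heterozygous and 397, 188 and 339 in wild-type brains, and at 1424749_at they were 105, 133 and 82.2 and 139, 78.0 and 156. In each of these 3 probe sets wild type 2 was the lowest of all brains, heterozygous 3 the second lowest, and wild types 1 and 3 were high. Their correlations with each other were 0.76 to 0.86.

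The log2 differences between genotypes at these Wdfy1 probe sets were 0.07, -0.23 and -0.17 (SE 0.19, 0.22 and 0.23, each limma adjusted p at least 0.961). The spread among wild-type brains, 0.36 to 0.54, lay above that of 92.4% to 98.1% of all tested probe sets. The dim probe set 1453426_a_at, between 22.8 and 38.1, did not follow the others (r = -0.29 to -0.38). The remaining one, 1447543_at, was too dim to test. Gfap, 1 of 4 astrocyte markers, measured 796, 802 and 712 on wild types 1 and 3 and heterozygous 1. It measured 441 to 522 on the other arrays. The other astrocyte markers did not share this split, and Aqp4 was highest on heterozygous 2 and wild type 2 (1759 and 1675). The part of astrocytes in the Wdfy1 values was not tested.

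Kcnj9 encodes GIRK3, a subunit of G-protein-gated potassium channels. At 1450712_at it measured 567, 151 and 155 in heterozygous and 301, 174 and 179 in wild-type brains. Heterozygous 1 stood far above the rest, wild type 1 came second, and the other 4 lay within 151 to 179. The standard deviation over 6 arrays, 0.71, exceeded that of 99.6% of all tested probe sets. The log2 difference was 0.17 (interval -0.71 to 1.04, limma adjusted p = 0.979), and it was -0.43 without heterozygous 1.

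At 1426115_a_at, a dimmer Kcnj9 probe set, heterozygous 1 and wild type 1 were again the highest, with 125, 21.3 and 47.4 in heterozygous and 65.8, 18.2 and 41.8 in wild-type brains (r = 0.88 with 1450712_at). Its log2 difference was 0.35 (interval -0.59 to 1.29), and it was -0.16 without heterozygous 1. The third tested probe set, 1428602_at, showed no such step: it measured 153, 170.4 and 180.4 in heterozygous and 145, 137 and 156 in wild-type brains (log2 difference 0.18, interval -0.07 to 0.44). The pituitary markers summed to 195 on heterozygous 1, the array highest at 1450712_at and 1426115_a_at. They summed to 20253 on wild type 1, second highest at both, and to 6556 on heterozygous 3. Their part in the Kcnj9 values was not tested.

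Ide encodes insulin-degrading enzyme, a peptidase that also cleaves amyloid beta. At its brightest probe set, 1435140_at, it measured 368, 388 and 332 in heterozygous and 293, 359 and 318 in wild-type brains, a log2 difference of 0.16 (interval -0.07 to 0.39). At 1441860_x_at it measured 100.5, 84.5 and 95.98 in heterozygous and 142, 116 and 119 in wild-type brains. Wild types 1 and 3 were lowest at the brightest probe set, as at Glo1 and at Alad 1424877_a_at. At 1441860_x_at every heterozygous brain was below every wild-type brain, opposite in sign to the brightest probe set, with which it correlated at -0.83. The log2 difference at 1441860_x_at was -0.37 (interval -0.66 to -0.08, limma unadjusted p = 0.0170, adjusted p = 0.956). By exact permutation, two-sided, p was 0.1, the smallest possible.

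The other 3 Ide probe sets had log2 differences of 0.04, 0.01 and -0.05, with intervals no wider than -0.43 to 0.34. The spread of the 5 probe sets among wild-type brains was 0.05 to 0.15, near or below the median of all tested probe sets, and the lowest, at 1453988_a_at, exceeded that of 8.56% of them.

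**Figure D4:**
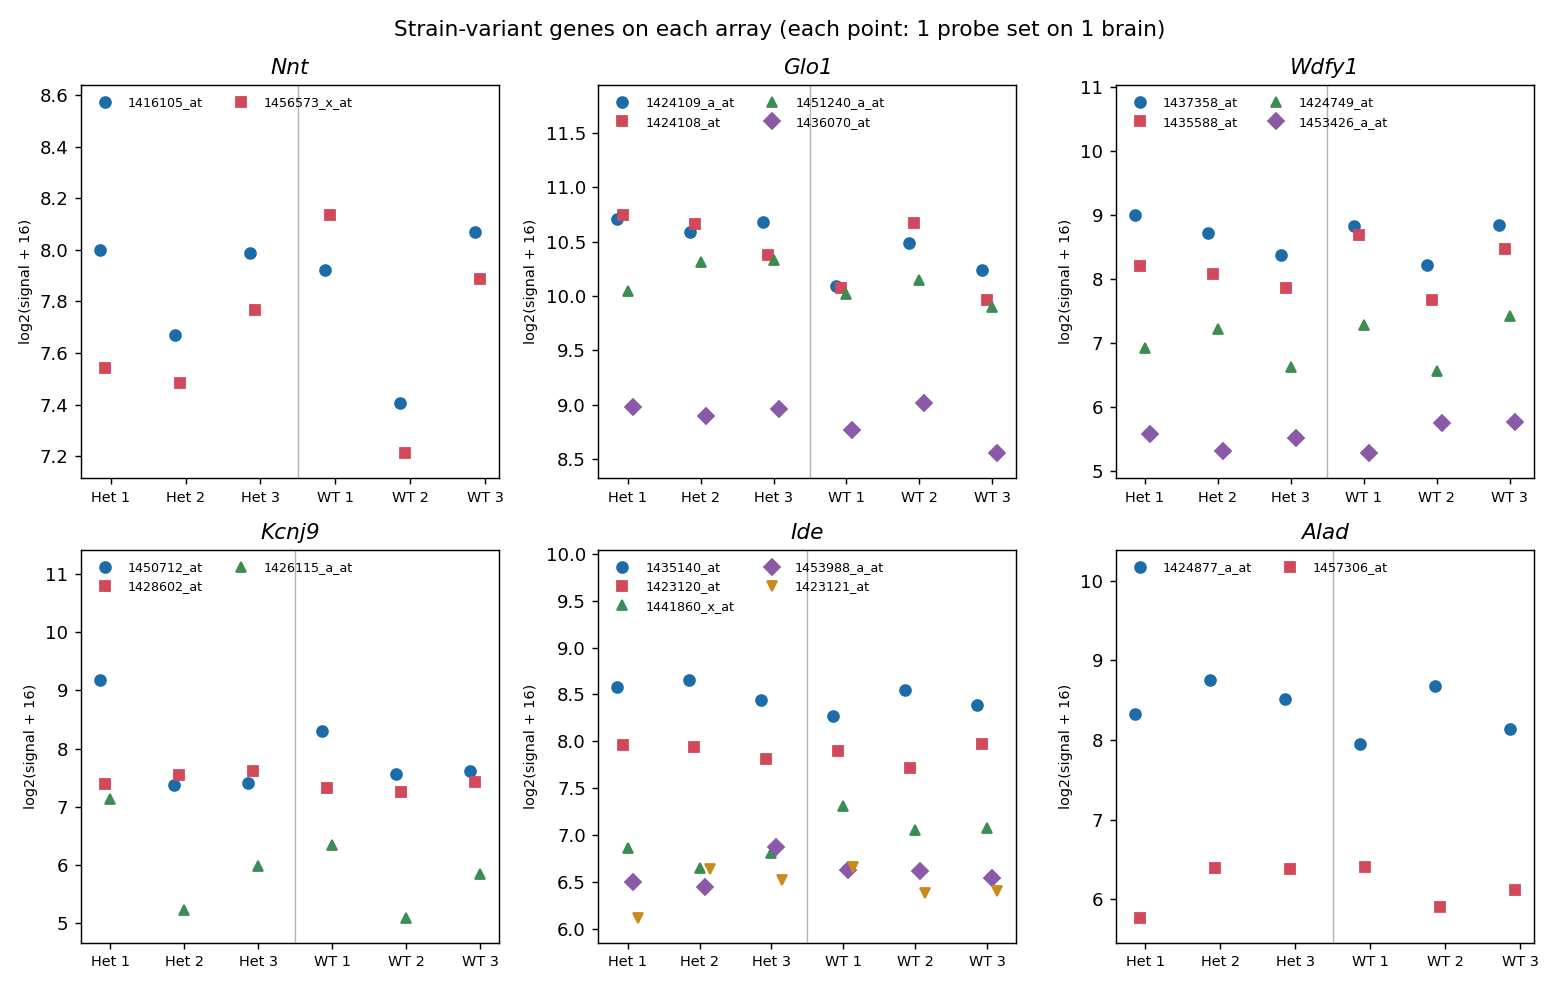
Log2(signal + 16) of each tested probe set of the 6 genes on each array, with heterozygous (Het) and wild-type (WT) brains 1 to 3 side by side and a symbol per probe set. Wild type 2 is low at both Nnt probe sets and at 3 Wdfy1 probe sets, wild types 1 and 3 are low at Glo1 and at Alad 1424877_a_at, and heterozygous 1 is high at 2 Kcnj9 probe sets.

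The genes did not split the arrays in 1 way. Over the brightest probe sets, Alad correlated with Ide at 0.85, with Glo1 at 0.72 and with Nnt at -0.68, Glo1 with Ide at 0.79, and Wdfy1 with Kcnj9 at 0.66 and Nnt at 0.65, each over 6 arrays that share 2 genotypes and 1 scaling. Nnt and Wdfy1 lie on chromosomes 13 and 1, and Glo1, Alad and Ide on chromosomes 17, 4 and 19. Wdfy1 and Kcnj9, both on chromosome 1, start at 79702262 and 172320508 (GRCm38.p6).

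The counts of unadjusted p-values depended on wild type 2. Without that array, 9 of the 20 probe sets (45%) had a limma unadjusted p below 0.05, in 5 of the 6 genes, against 6.06% of all tested probe sets. They were the 4 of Glo1 (log2 differences 0.27 to 0.58) and 1 of Alad (0.49) on the higher side, and 2 of Wdfy1 (-0.43 and -0.53), 1 of Nnt (-0.41) and 1 of Ide (-0.42) on the lower side. None passed after adjustment over all probe sets. Wild type 2 lay farthest from the other wild types at 13 of the 20, so leaving it out narrows the wild-type spread at these probe sets in particular. The 9 are not independent, since 4 are of Glo1, and no genotype effect is read from this count. Without heterozygous 2 or without wild type 1 the count was 1, the Glo1 probe set 1424109_a_at (5.49% and 4.03% of all tested probe sets). Without heterozygous 1 or 3 it was 3 (4.48% and 5.4%), and without wild type 3 it was 2 (4.23%).

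The patterns most like each member were sought over all 23473 tested probe sets with 1 gene. For Nnt 1416105_at they were Pnkd, Stxbp5 and Zmym3 (r = 0.996, 0.992 and 0.987), and for Glo1 1424109_a_at Zfp251, Emp3 and Hebp1 (0.991, 0.990 and 0.988). Lancl2, Hgsnat and Nxph2 were closest to Wdfy1 (0.993, 0.988 and 0.984), and Cdh1, Rpap1 and Cyth3 to Kcnj9 (0.996, 0.992 and 0.991). For Ide they were Sdha, Fam131b and Cyhr1 (0.997, 0.996 and 0.993) and for Alad Gnptg, Tbrg4 and Mtus2 (0.993, 0.991 and 0.989). Each member had 57 to 88 probe sets at r of at least 0.95 over the 6 arrays, which is 0.243% to 0.375% of those compared. Lancl2, whose range was 155 to 289, had its lowest values on wild type 2 and heterozygous 3, as Wdfy1 did. Its choice by correlation makes that likely, so it is no separate result. None of the 18 genes lay on the chromosome of its member.

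Around the 8 genes, 219 measured genes started within 2 Mb of a member, each represented by its brightest tested probe set. None was called (0.00768% of all 13024 genes were), and 14 (6.39%), 7 higher and 7 lower, had an unadjusted p below 0.05, against 4.38% of all genes. Near Glo1 these were 3 of 39: Akap8l, an anchoring-protein gene (0.30, SE 0.10), Abcg1, a sterol transporter gene (0.20, SE 0.08), and BC004004 (-0.21, SE 0.09). Near Disc1 they were 4 of 48, with Cpne7, a copine gene (0.37, SE 0.11), the potassium channel gene Kcnk1 (0.27, SE 0.09) and Map10 (-0.56, SE 0.19) first by p. The remaining ones named by p were Zfp37 near Alad (-0.37, SE 0.10), Acsl3, an acyl-CoA synthetase gene, near Wdfy1 (-0.24, SE 0.08), Arhgap30 near Kcnj9 (0.48, SE 0.18), and the Polycomb gene Pcgf5 (-0.25, SE 0.11) and Hectd2 (-0.29, SE 0.13) near Ide. None of the 31 genes near Entpd4 reached that limit.

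An absolute correlation of at least 0.9 with the brightest probe set was seen for 0 of 8 neighbours of Nnt, 0 of 39 of Glo1, 0 of 11 of Wdfy1, 2 of 42 of Kcnj9, 2 of 22 of Ide and 0 of 18 of Alad. The share was 4.76% near Kcnj9 and 9.09% near Ide, against 2.09% and 2.89% of all genes, and the all-gene share was 1.93% to 2.89% over the 6 members. The neighbours of Kcnj9 that did were Tomm40l and Apoa2, at -0.97 and -0.91, and those of Ide were Rpp30 and Marchf5, at 0.98 and -0.95. Just under that limit were 4833420G17Rik, Zfp131 and Tmem267 near Nnt, at -0.89, -0.88 and -0.85, and Slc31a1 and Hdhd3 near Alad, at 0.90 and 0.89. Neighbours of other members came close to it too: Adamts4 and Pea15a near Kcnj9 (0.87 and 0.84), Tnks2 near Ide (-0.85) and Abcg1 near Glo1 (0.84). These genes are named here because of their correlations.

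Of 7 genes with variants between C57BL/6 substrains 3 were tested, with a median log2 difference of -0.20 (0.01 over all genes). With 3 genes this median is the value of Crb1, which was dim (21.3 to 33.0). At an unadjusted p below 0.05 was 1 of the 3, against 4.38% of all genes. That was Gabra2, a GABA-A receptor subunit whose expression is reduced by a C57BL/6J variant. At 1455444_at it measured 483, 535 and 394 in heterozygous and 709.7, 806 and 594 in wild-type brains, with no overlap (log2 difference -0.56, SE 0.13, limma adjusted p = 0.956). At 1421738_at it measured 259, 240.1 and 217 in heterozygous and 360.4, 330.4 and 438 in wild-type brains, again without overlap (-0.62, SE 0.12, limma adjusted p = 0.656). A further tested probe set, 1443865_at, overlapped between genotypes (-0.34, SE 0.16). Wild type 2, low in Nnt and Wdfy1, was the highest wild-type brain at the first of these probe sets and the lowest at the second.

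Cyfip2, a regulator of actin with a C57BL/6N variant, lay at -0.07 (SE 0.10), and Crb1, with a retinal degeneration variant in C57BL/6N, at -0.20 (SE 0.17). Mmrn1, deleted in a C57BL/6 subline, lay between 0.272 and 14.3 on all arrays and Nlrp12 between 1.21 and 12.7, both too dim to test. Of 18 genes with variants between C57BL/6 and other inbred strains 7 were tested, with a median of -0.002. At an unadjusted p below 0.05 was 1 of the 7, against 4.38% of all genes. This was Fv1, a retrovirus restriction gene, with 19.9, 6.34 and 22.8 in heterozygous and 57.3, 50.2 and 26.9 in wild-type brains (-0.91, SE 0.27, limma adjusted p = 0.956). At their brightest tested probe sets Prnp, the prion protein gene, lay at 0.08 (SE 0.10), Cox7a2l, a respiratory supercomplex factor, at 0.02 (SE 0.08) and Mpdz at -0.06 (SE 0.13). Cox7a2l lay at 0.10 (SE 0.08) at 1432263_a_at, where the genotypes did not overlap, and at 0.07 (SE 0.08) at 1432264_x_at, where they did.

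Genes that work with the members showed no called difference. Of 13 measured genes of mitochondrial NADPH supply and peroxide removal, none had an unadjusted p below 0.05, and they ranged from Me3, mitochondrial malic enzyme, at -0.17 (SE 0.15) to the peroxiredoxin gene Prdx3 at 0.15 (SE 0.10). None of 8 genes of glyoxalase and aldehyde clearance reached it either, from Gclc at -0.07 (SE 0.09) to Park7 at 0.10 (SE 0.09). The 7 genes of haem synthesis ranged from Cpox at -0.26 (SE 0.14) to Alas1 at 0.05 (SE 0.11), with none at that limit.

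Among 9 channel and regulator genes related to Kcnj9, none had an unadjusted p below 0.05. Kcnj3, its channel partner, lay at -0.25 (SE 0.13), and Kcnj11 at 0.36 (SE 0.22). Of 7 peptidase genes related to Ide, 1 reached it, where 4.38% of all genes did. This was Mmel1, with 49.96, 32.5 and 29.4 in heterozygous and 28.1, 15.3 and 16.6 in wild-type brains (0.56, SE 0.22, limma adjusted p = 0.956). None of 16 binding partners of Disc1, 6 relatives of Entpd4 and 10 endosomal genes related to Wdfy1 reached it. By the test statistic, the lowest and highest of these lists included Dixdc1 at -0.22 (SE 0.14) and Cit at 0.09 (SE 0.08), Entpd7 at -0.12 (SE 0.19) and Entpd3 at 0.18 (SE 0.14), and Wdfy3 at -0.19 (SE 0.09) and Zfyve16 at 0.12 (SE 0.16).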

How the data were processed

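Per the labels' protocols, labelled cRNA was hybridised, 1 brain per array, and the authors deposited 1 linear intensity per probe set. The sources used here do not name the probe summary software. The central 96% of values averaged 150.0 on each array, a sign of global scaling. Of 45101 probe sets 64 were controls. The platform annotation named 1 gene for 34945 and several for 932, which were left unnamed, and 34741 were matched to RefSeq GRCm38.p6 for current symbols and positions.

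Intensities were analysed as log2(signal + 16), which understates changes of dim probe sets, without further normalization. The dimmest 40% (18015 probe sets, by mean log2 value) were left out. Limma 3.58.1 (R 4.3.3) compared genotypes, with an intensity trend and no covariate, two-sided, with Benjamini-Hochberg adjustment over 27022 probe sets and a threshold of 0.05. The fit was checked on simulated data. Having 3 arrays per genotype limits precision. Counts over genes used the brightest tested probe set of each.

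Named beside the members were Pphln1, the 3 genes of highest Pearson r with each member, up to 3 neighbours within 2 Mb by p, genes at either end of each list by the test statistic, and selected strain-variant genes. Exceptions say so. The members and lists were chosen with earlier results of these data known. Alternatives changed the normalization, pseudocount (1 and 64), dim filter, variance model, weights, replicate block and arrays included.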

Additional observations from a re-analysis of the deposited data

How the results depend on the processing

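No member probe set was called under any of the 16 alternatives. The count at a limma unadjusted p below 0.05, 2 of 20, was 4 with quantile normalization and with array weights (4.90% and 5.29% of all tested probe sets) and 1 to 9 with single arrays left out. With a replicate block it was 5 (7.01%). Arrays with the same number correlated in their deviations at 0.08, 0.20 and -0.02, and arrays with different numbers at -0.16 to 0.09. Whether the numbers stand for more than a label was not tested. All Glo1 differences stayed above 0. Elsewhere the sign changed in 18 cases, none of them a call. With single arrays left out, the log2 difference ran from -0.11 to 0.22 at Nnt 1416105_at, from -0.41 to 0.047 at Nnt 1456573_x_at, from -0.14 to 0.23 at Wdfy1 1437358_at and from -0.43 to 0.0021 at Wdfy1 1424749_at. It ran from -0.43 to 0.47 at Kcnj9 1450712_at and from -0.16 to 0.80 at Kcnj9 1426115_a_at, both lowest without heterozygous 1. The ranges were -0.034 to 0.095 at Ide 1423120_at, -0.13 to 0.086 at Ide 1453988_a_at, -0.16 to 0.10 at Ide 1423121_at and -0.080 to 0.25 at Alad 1457306_at. Wdfy1 1437358_at came to -0.029 with array weights, and Ide 1453988_a_at to -0.0062 with quantile normalization and -0.029 with median centring. The cause was not tested. The whole-table count of calls, 4, was 1 without the dim filter or the intensity trend and 1 to 14 with single arrays left out.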
